A study of Arabidopsis thaliana with 6 samples.

Results

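Transcript levels of 40 nuclear genes for the light-harvesting antenna, photosystem I and photosystem II were compared between germinated Arabidopsis seeds before and after incubation in polyethylene glycol (PEG). The genes were taken from a list of gene identifiers (loci) drawn up by the subunit each gene encodes, with earlier results of these data known, and all 40 were found among the 27981 loci on the arrays. They comprise 19 antenna genes (LHCB and LHCA), 12 genes for photosystem I subunits (PSA) and 9 genes for photosystem II subunits (PSB). PEG lowers the water potential of the solution and withholds water from the seeds, and in the study it is used to bring back desiccation tolerance after the radicle has emerged.

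Photosystem II uses light to take electrons from water, and photosystem I uses light again to pass these electrons to ferredoxin. Both are built from subunits encoded in the chloroplast, which form the reaction centres, and subunits encoded in the nucleus, which are imported and form most of the periphery. The antenna proteins bind chlorophyll around each photosystem, and their nuclear genes are known for strong responses to light and to the state of the chloroplast. In a germinating seed these transcripts are usually found in the greening cotyledons.

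All seeds were of accession Col-0, with no mutation or transgene named, and had been stratified for 72 h at 4 °C and then germinated at 22 °C under constant white light. In the untreated group, 3 arrays were made from seeds frozen at radicle protrusion. In the PEG group, 3 arrays were made from seeds of that stage kept for 72 h in PEG at -2.5 MPa, in darkness and at 20 °C. Osmotic stress, darkness, time and temperature therefore differed together between the groups and cannot be told apart. Each array represents whole seeds pooled from several plants, so that fewer cells of a type and less RNA per cell cannot be told apart either.

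The values are log2 expression values, and values under 4 were set to 4, the floor used in the study. Both limits of a call were an adjusted p of 0.01 or less in limma (Benjamini-Hochberg) and a log2 fold change of at least 2 in either direction. Of 35986 features on the arrays, 990 passed both limits, and the median log2 fold change over all features was 0, with quartiles of -0.21 and 0.21. Arrays correlated at 0.983 to 0.993 within a group and at 0.857 to 0.892 between groups. Some marker genes of seed reserves and of the endosperm also differed between the groups. Of 7 seed reserve genes, 4 passed both limits and were higher after PEG (against 1.15 % of all features). These were the cruciferin genes CRA1 and CRU3 and the oleosin genes OLEO1 and OLEO2. CRU2 had a log2 fold change of 1.72 without overlap (limma adjusted p = 0.18), while AT2S1 had -0.08 and AT2S3 -0.04. The summed log2 level of the 7 genes went from between 7.39 and 7.89 to between 13.0 and 13.4. The summed log2 level of 2 endosperm genes, MAN7 and EXPA2, was 8.64 to 8.86 in untreated seeds and 9.75 to 9.99 after PEG. Of these 2, MAN7 passed both limits and was higher, with a log2 fold change of 2.88 (limma adjusted p = 0.0006). EXPA2, which had the higher level, changed by 0.47 (adjusted p = 0.051). That of 5 root tip genes was 7.76 to 7.88 and 7.59 to 7.60, respectively, with PLT1 and WOX5 at the floor on every untreated array. Both root hair genes, COBL9 and EXPA7, were at the floor on all arrays. The part of these differences in the results below was not tested.

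Transcripts for photosystem and antenna subunits declined after PEG. Of the 40 genes, 16 passed both limits and were lower (against 1.6 % of all features). None was higher, also at an unadjusted p under 0.05 in limma, where 33 were lower (against 19.2 % of all features). At the adjusted p limit alone 23 genes were lower (57.5 %, against 8.24 % of all features). In 33 genes every PEG array was below every untreated array (82.5 %, against 21.1 % of all features). The median log2 fold change of the 40 genes was -1.75, a 3.37-fold lower level, with quartiles of -2.44 and -0.98. By the sign of the change 38 genes were lower, and the other two, LHCB1.1 and LHCB1.4, lay at the floor on all 6 arrays and were counted as neither higher nor lower.

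The decline was seen in the middle of the set on each array. The median of the 40 log2 levels was 7.24, 6.77 and 7.00 on the untreated arrays and 4.23, 4.69 and 4.77 on the PEG arrays, in the order of replicates 1 to 3, as in all lists of values below. In untreated replicate 2, 22 of the 40 genes were lower than on both other untreated arrays, and 7 were higher, with a median deviation of -0.21. Over all features, the share lower than both in that replicate was 20.8 %, or 33.6 % among features exceeding the floor on 3 arrays or more. In PEG replicate 1, 17 of the 40 genes were lower than on both other PEG arrays and 3 were higher, where 23.8 % of all features were lower.

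The floor limits what can be said of 13 genes that lay at it on all PEG arrays, of which 11 were above it on at least 1 untreated array. For these 11, and for LHCB1.5 and PSAO with 2 PEG arrays at the floor, the log2 fold change understates the difference in the deposited values. Without the floor all 40 genes were lower, 22 of them passed both limits (against 3.2 % of all features), and the median log2 fold change was -2.14.

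**Figure D1:**
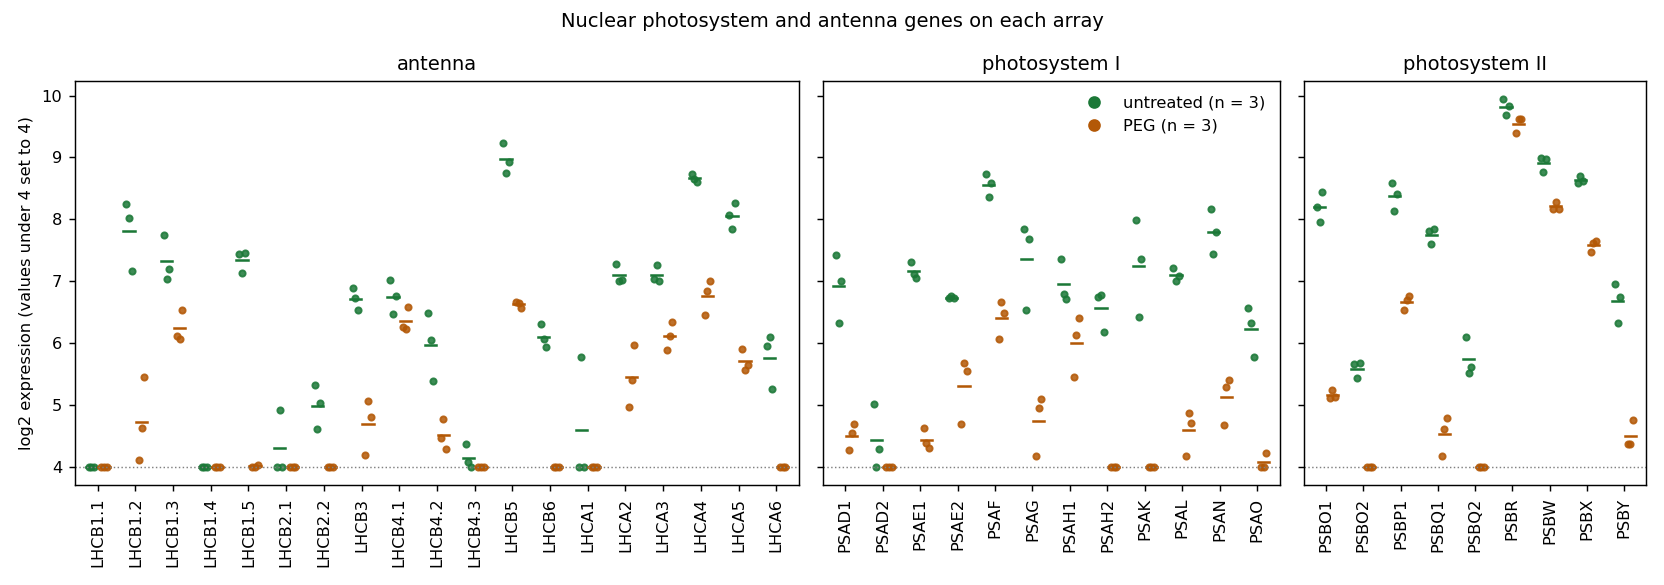
Log2 expression of each of the 40 genes on the 3 untreated and 3 PEG arrays, by group of genes, with values under 4 drawn at 4; points are arrays and short lines group means. The mean of each photosystem gene lies lower after PEG, by least in PSBR and PSAD2, while LHCB1.1 and LHCB1.4 sit at the floor on all arrays.

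The antenna genes encode chlorophyll-binding proteins, LHCB for photosystem II and LHCA for photosystem I. Of the 19 genes, 17 were lower after PEG, and 5 of them passed both limits (26.3 %, against 1.6 % of all features). The median log2 fold change was -1.47. The median log2 level of the 19 genes was 6.89, 6.47 and 6.53 on the untreated arrays and 4.11, 4.62 and 4.29 on the PEG arrays. In 13 genes the groups did not overlap (68.4 %, against 21.1 % of all features lower without overlap).

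LHCB1, LHCB2 and LHCB3 proteins form the trimers of the main antenna of photosystem II. LHCB1.5 (AT2G34420) had the largest change of the 40 genes with the floor. Its log2 level was 7.43, 7.12 and 7.45 in untreated seeds and 3.51, 3.60 and 4.03 after PEG. The groups were more than 3 log2 units apart, and with the floor the change was -3.33 (SE 0.10, limma adjusted p = 0.0003). With 2 of the 3 PEG arrays set to the floor, this understates the change, which was -3.63 without the floor, and narrows the spread. LHCB1.2 (AT1G29910) was at 8.24, 8.02 and 7.17 untreated and at 4.11, 4.62 and 5.45 after PEG. Its groups did not overlap either, but with a log2 fold change of -3.08 and a wider spread (SE 0.49) its adjusted p of 0.013 missed the limit. No value of LHCB1.2 lay under the floor. Fitted without the floor, the same change passed both limits (SE 0.37, limma adjusted p = 0.0002), so the miss depends on the floor set over all features. LHCB1.3 had a log2 fold change of -1.09 (adjusted p = 0.036). LHCB1.1 and LHCB1.4, in contrast, gave at most 2.61 and 2.81 on any array, below the floor. LHCB1.1, LHCB1.2 and LHCB1.3 neighbour each other in the genome, as do LHCB1.4 and LHCB1.5. The coding regions of these genes are near-identical, so signal can be shared or lost between their probes and the split among copies is uncertain.

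LHCB3 (AT5G54270) was close to the fold limit. It was at 6.89, 6.73 and 6.53 in untreated seeds and at 4.19, 5.06 and 4.80 after PEG, without overlap. The log2 fold change was -2.03 (SE 0.27, limma adjusted p = 0.0082). This call was lost whichever array was left out. LHCB2.2 was at 5.32, 4.60 and 5.03 in untreated seeds and under the floor on all PEG arrays, with a log2 fold change of -0.98 with the floor (adjusted p = 0.027) and -2.12 without it. Its neighbour LHCB2.1 was above the floor on 1 array only, at 4.92 in untreated replicate 2, with a log2 fold change of -0.31 (adjusted p = 0.63). LHCB2.1 and LHCB2.2 are also near-identical copies.

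LHCB4, LHCB5 and LHCB6 encode the single antenna proteins that lie between the trimers and the photosystem II core. LHCB5 (AT4G10340) was at 9.23, 8.75 and 8.92 in untreated seeds and at 6.67, 6.65 and 6.57 after PEG. Its groups lay 2 log2 units apart, with a log2 change of -2.34 (SE 0.14, limma adjusted p = 0.0012). LHCB6 (AT1G15820) was at 6.31, 6.07 and 5.93 untreated and, under the floor, at 2.73, 3.66 and 3.55 after PEG. With the floor its log2 fold change was -2.10 (SE 0.11, adjusted p = 0.0009), and without the floor -2.79. Its call was lost only when untreated replicate 1 was left out, which put the change just inside the fold limit. The LHCB4 genes passed neither limit, with log2 fold changes of -0.40 for LHCB4.1, -1.47 for LHCB4.2 and -0.14 for LHCB4.3. LHCB4.3 was barely above the floor in untreated seeds, and without the floor its log2 fold change was -1.44.

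LHCA1 to LHCA4 form the antenna belt of photosystem I, and LHCA5 and LHCA6 link photosystem I to the chloroplast NADH dehydrogenase-like complex. LHCA5 (AT1G45474) was at 8.07, 7.84 and 8.27 in untreated seeds and at 5.91, 5.57 and 5.65 after PEG. The groups did not overlap, and the log2 fold change was -2.35 (SE 0.15, limma adjusted p = 0.0015). The call was lost without untreated replicate 1, PEG replicate 2 or PEG replicate 3. LHCA4 was at 8.73, 8.65 and 8.60 untreated and at 6.45, 6.84 and 7.00 after PEG, a log2 fold change of -1.90 (adjusted p = 0.0028) that missed the fold limit only. LHCA6 did likewise, with -1.76 (adjusted p = 0.0099), all PEG arrays being at the floor. Without the floor LHCA6 passed both limits, with -2.34 (limma adjusted p = 0.0005). LHCA2 and LHCA3 had log2 fold changes of -1.65 (adjusted p = 0.018) and -0.99 (adjusted p = 0.011). LHCA1 was at 3.17, 5.76 and 3.05 in untreated seeds and at 2.63, 3.18 and 2.53 after PEG. It exceeded the floor in untreated replicate 2 alone, and its log2 fold change of -0.59 did not pass (adjusted p = 0.63). Of the other LHCA1 features, 2 hold identical values and the third gave a log2 fold change of -0.04.

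Genes for photosystem I subunits declined most by the median of the 3 groups. All 12 were lower after PEG, and 8 of them passed both limits (66.7 %, against 1.6 % of all features). The median log2 fold change was -2.46. The median log2 level of the 12 genes was 7.34, 6.77 and 7.03 on the untreated arrays and 4.22, 4.71 and 4.70 on the PEG arrays. In 11 genes the groups did not overlap (91.7 %, against 21.1 % of all features lower without overlap). Whether the groups of genes differed from each other was not tested, since genes are not replicates.

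PSAD and PSAE form the stromal face of photosystem I, where ferredoxin docks. PSAE1 (AT4G28750) was at 7.31, 7.12 and 7.05 in untreated seeds and at 4.62, 4.39 and 4.3 after PEG. It had the smallest SE among the called photosystem I genes, with a log2 change of -2.73 (SE 0.12, limma adjusted p = 0.0006). PSAD1 (AT4G02770) was at 7.42, 6.33 and 7.01 untreated and at 4.27, 4.54 and 4.69 after PEG. Untreated replicate 2 was well below the other untreated arrays, and the log2 fold change was -2.42 (SE 0.33, adjusted p = 0.0087). PSAE2 had a log2 fold change of -1.43 (adjusted p = 0.029). PSAD2 had the smallest change of the photosystem I genes, at 5.01, 3.83 and 4.28 untreated and at 2.62, 3.42 and 2.94 after PEG. With the floor the groups touched and the log2 fold change was -0.43 (SE 0.29, adjusted p = 0.41), while without the floor it was -1.38.

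PSAF and PSAN lie on the lumenal side, where plastocyanin docks. PSAF (AT1G31330) was at 8.74, 8.37 and 8.58 in untreated seeds and at 6.06, 6.66 and 6.49 after PEG. PSAN (AT5G64040) was at 8.16, 7.45 and 7.80 untreated and at 4.67, 5.28 and 5.41 after PEG. Neither gene had overlapping groups, with log2 fold changes of -2.16 for PSAF (SE 0.20, limma adjusted p = 0.0034) and -2.68 for PSAN (SE 0.29, adjusted p = 0.0051). Both calls were lost whichever array was left out.

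PSAG and PSAK flank the antenna belt. PSAK (AT1G30380) was at 7.99, 6.42 and 7.35 in untreated seeds and, under the floor, at 2.64, 3.42 and 3.42 after PEG. It had the largest change of the photosystem I genes, -3.25 with the floor (SE 0.44, limma adjusted p = 0.0087). Without the floor it was -4.09, which then exceeded that of LHCB1.5 (-3.63). PSAG (AT1G55670) was at 7.84, 6.53 and 7.68 untreated and at 4.17, 4.94 and 5.10 after PEG. In both genes untreated replicate 2 was the lowest untreated array by a wide margin. For PSAG, with a log2 fold change of -2.62 (SE 0.48), the adjusted p of 0.020 missed the limit. Fitted without the floor, under which no value of PSAG lay, the same change passed both limits (SE 0.37, limma adjusted p = 0.0006).

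PSAH, PSAL and PSAO lie on the side where the photosystem II antenna can bind in state transitions, the shift of antenna between the photosystems. PSAL (AT4G12800) was at 7.21, 7.00 and 7.08 in untreated seeds and at 4.17, 4.87 and 4.71 after PEG. It was lower by more than 2 log2 units on every PEG array, with a log2 change of -2.51 (SE 0.21, limma adjusted p = 0.0027). PSAH2 (AT1G52230) was at 6.74, 6.78 and 6.18 untreated and, under the floor, at 2.98, 3.24 and 3.40 after PEG. PSAO (AT1G08380) was at 6.57, 6.33 and 5.77 untreated and at 3.87, 3.74 and 4.21 after PEG. With the floor the log2 fold changes were -2.57 for PSAH2 (SE 0.19, adjusted p = 0.0019) and -2.15 for PSAO (SE 0.24, adjusted p = 0.0051), and without it -3.36 and -2.28. PSAH1 had a log2 fold change of -0.96 that did not pass (adjusted p = 0.11), though its groups did not overlap.

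All 9 photosystem II genes were lower after PEG without overlap of the groups (against 21.1 % of all features). At the adjusted p limit alone 8 of them were lower (88.9 %, against 8.24 % of all features). Of these, 3 also passed the fold limit (against 1.6 % of all features), and the median log2 fold change of the 9 genes was -1.72. The median log2 level of the 9 genes was 8.20, 7.95 and 8.41 on the untreated arrays and 5.11, 5.23 and 5.13 on the PEG arrays.

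PSBO, PSBP and PSBQ encode the lumenal proteins that shield the manganese cluster, where water is oxidised. All 5 of these genes passed the adjusted p limit. PSBO1 (AT5G66570) was at 8.20, 7.95 and 8.45 in untreated seeds and at 5.11, 5.23 and 5.13 after PEG, a log2 change of -3.04 (SE 0.14, limma adjusted p = 0.0007). PSBQ1 (AT4G21280) was at 7.81, 7.60 and 7.85 untreated and at 4.17, 4.60 and 4.79 after PEG, a log2 change of -3.23 (SE 0.19, adjusted p = 0.0011). In both genes the nearest arrays of the groups lay more than 2 log2 units apart, and both calls were kept whichever array was left out. PSBP1, PSBO2 and PSBQ2 had log2 fold changes of -1.72 (adjusted p = 0.0027), -1.58 (adjusted p = 0.0007) and -1.74 (adjusted p = 0.0039). PSBO2 and PSBQ2 were under the floor on all PEG arrays, and without the floor their log2 fold changes were -2.84 and -2.89.

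PSBR, PSBW, PSBX and PSBY encode small subunits of photosystem II. PSBY (AT1G67740) was at 6.95, 6.32 and 6.74 in untreated seeds and at 4.37, 4.36 and 4.76 after PEG. Its groups did not overlap, and the log2 fold change was -2.18 (SE 0.22, limma adjusted p = 0.0040). PSBX and PSBW were lower by less, with -1.05 (adjusted p = 0.0012) and -0.71 (adjusted p = 0.0052). PSBR (AT1G79040), which helps to hold the lumenal proteins, had the smallest change of the photosystem II genes. It was at 9.94, 9.69 and 9.84 untreated and at 9.40, 9.62 and 9.63 after PEG. Its groups were just apart, but the log2 fold change of -0.27 did not pass (SE 0.10, adjusted p = 0.12).

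**Figure D2:**
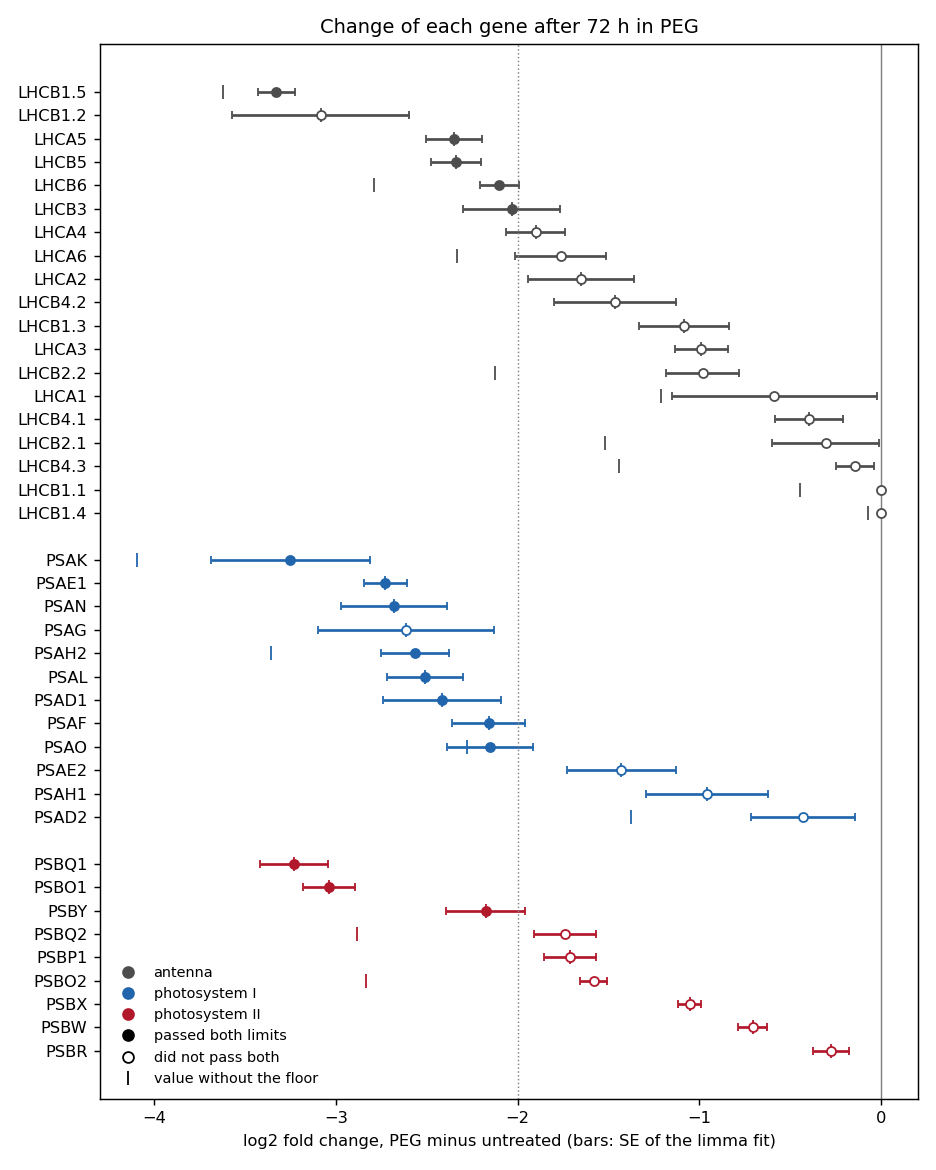
Log2 fold change (PEG minus untreated) of the 40 genes, ordered within antenna, photosystem I and photosystem II; bars show the SE of the limma fit, filled circles the 16 genes past both limits, upright ticks the value without the floor and the dotted line the fold limit. The values run from -3.33 for LHCB1.5 to 0 for LHCB1.1 and LHCB1.4, and ticks stand apart from their circles where arrays lay under the floor.

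Of the 16 calls, 11 were lost when some single array was left out. LHCB1.5, LHCB5, PSAE1, PSBO1 and PSBQ1 passed both limits whichever array was left out. The number of genes past both limits was 5, 11 and 10 without untreated replicates 1, 2 and 3 and 8, 6 and 7 without PEG replicates 1, 2 and 3. PSAD1, PSAK and PSBY kept their call only without untreated replicate 2, PSAL only without PEG replicate 1 and PSAO only without untreated replicate 3. PSAH2 kept it without untreated replicate 2 or 3. At the adjusted p limit alone, 8 to 15 genes were lower with 1 array left out, fewest without PEG replicate 2.

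Several subunits are encoded by more than one gene, and the change was compared within 8 such pairs by the difference of the log2 levels on each array. The smallest p of an exact two-sided permutation test with 3 arrays in each group is 0.1, so no pair could reach 0.05. After adjustment over the 8 pairs, p was 0.13 for the 6 pairs whose groups did not overlap, 0.23 for LHCB4.1 and LHCB4.3, and 0.40 for LHCB2.1 and LHCB2.2. In 3 of the 6 pairs the gene with the smaller change was under the floor on every PEG array. The difference shifted by -1.99 for PSAD1 minus PSAD2, by -1.46 for PSBO1 minus PSBO2 and by -1.49 for PSBQ1 minus PSBQ2, all on the log2 scale. Without the floor these shifts were -1.04, -0.20 and -0.35, and the groups overlapped for PSBQ. In the other 3 pairs the shift was at least as large without the floor. With the floor it was -1.30 for PSAE1 minus PSAE2, 1.61 for PSAH1 minus PSAH2 (2.40 without the floor) and 1.07 for LHCB4.1 minus LHCB4.2. PSAE1, PSAH2 and LHCB4.2 were thus the genes with the larger drop, and their partners had log2 fold changes of -1.43, -0.96 and -0.40. The shift for LHCB4.1 and LHCB4.3 was -0.25 with the floor and 1.05 without it.

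**Figure D3:**
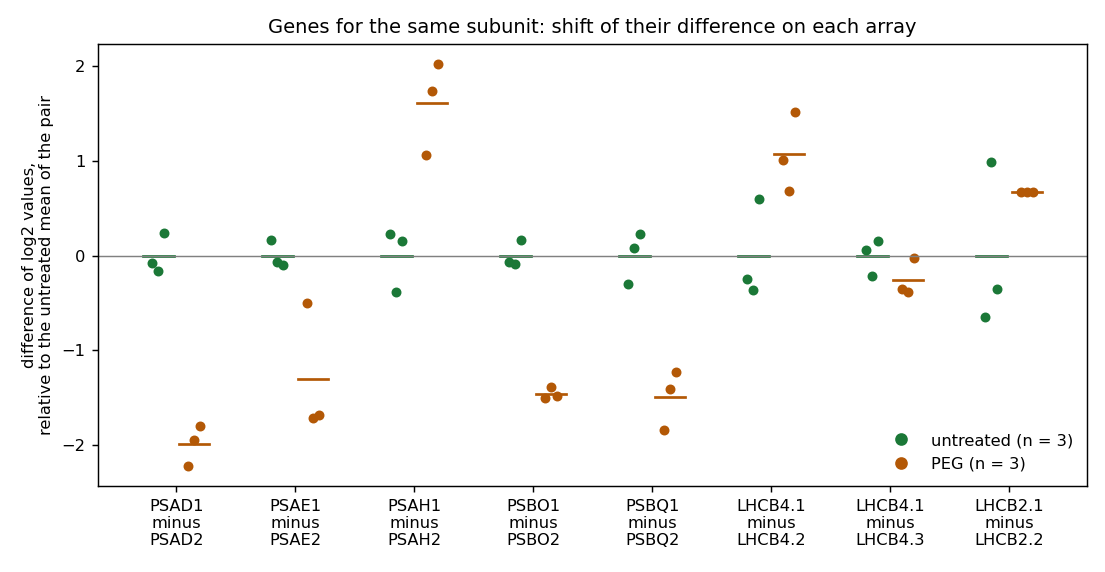
Difference between the log2 levels of genes for the same subunit on each array, relative to the untreated mean of the pair; points are arrays and lines the group means (n = 3 each). The 6 leftmost pairs show no overlap of untreated and PEG arrays, and for PSAD, PSBO and PSBQ the second gene lay at the floor after PEG.

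Other nuclear genes of the light reactions that are not among the 40 were followed as lists. The median log2 fold change of 7 further photosystem genes was -0.27. Of these, 5 were lower and 2 passed both limits (28.6 %, against 1.6 % of all features). The other two, LHCB7 and PSBP2, were under the floor on all arrays. Without the floor the median was -1.16, and both were higher, PSBP2 by 1.27 (limma adjusted p = 0.0028) and LHCB7 by 0.50 (adjusted p = 0.11). PSBS, whose protein triggers the dissipation of excess light energy as heat, was at 9.06, 8.67 and 9.12 in untreated seeds and at 5.04, 5.40 and 5.44 after PEG. Its log2 change of -3.65 (SE 0.18, limma adjusted p = 0.0008) was larger than that of any of the 40 genes with the floor, though without it PSAK changed by more. PSBTN had a log2 fold change of -2.23 (adjusted p = 0.0039). PSB28 and PSB27, linked to photosystem II assembly and repair, had log2 fold changes of -1.85 (adjusted p = 0.0036) and -0.27 (adjusted p = 0.065).

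All 11 genes for electron carriers and the chloroplast ATP synthase were lower, with a median log2 fold change of -1.67. Of these, 7 passed the adjusted p limit (63.6 %, against 8.24 % of all features) and 3 passed both limits (27.3 %, against 1.6 %). The 3 were the plastocyanin genes PETE1 (-2.39, limma adjusted p = 0.0043) and PETE2 (-2.64, adjusted p = 0.0016) and the ferredoxin gene FD1 (-2.49, adjusted p = 0.0063). Plastocyanin carries electrons to photosystem I and ferredoxin takes them up from it. FNR2, whose protein passes electrons from ferredoxin to NADP, and ATPD, a subunit of the ATP synthase, were lower at the adjusted p limit alone, with -1.80 and -1.77.

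Of 10 genes for the import, insertion and assembly of photosystem proteins, 9 were lower and none passed both limits, with a median log2 fold change of -0.68. At an unadjusted p under 0.05 in limma, 6 were lower (against 19.2 % of all features) and 1 was higher (against 19 %). HCF136, a photosystem II assembly factor, was lower at the adjusted p limit (-1.24, limma adjusted p = 0.0006). cpFTSY, the receptor for delivery of antenna proteins to the thylakoid membrane, had a log2 fold change of -0.90 (adjusted p = 0.026). ALB3, the insertase for these proteins, was the only gene of the list above its untreated level, with 0.61 (adjusted p = 0.034).

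None of 5 transcription factor genes known to control light-harvesting and chloroplast genes passed the adjusted p limit. At an unadjusted p under 0.05 in limma, 1 of the 5 was lower (against 19.2 % of all features). The log2 fold changes were 0.16 for GLK1 (limma adjusted p = 0.82), -0.43 for GLK2 (adjusted p = 0.15) and 0.02 for GNC (adjusted p = 1.0). CGA1 had -1.05 (adjusted p = 0.035) and HY5 -0.68 (adjusted p = 0.16). The groups of arrays did not overlap for CGA1 and HY5 (40 %, against 21.1 % of all features lower without overlap). CGA1 was at 7.25, 6.96 and 7.64 in untreated seeds and at 6.51, 6.03 and 6.15 after PEG, all above the floor. In the fit without the floor its log2 fold change was the same, with an SE of 0.22 in place of 0.24. It then passed the adjusted p limit (limma adjusted p = 0.0044).

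Photosystem subunits encoded in the chloroplast genome did not decline with the nuclear genes. The median log2 level of 19 such genes was 10.78, 10.61 and 10.66 on the untreated arrays and 11.03, 11.06 and 11.07 on the PEG arrays. All 19 had positive log2 fold changes (18 of them after quantile normalization), from 0.11 to 0.64 with a median of 0.42, and in 16 of them the groups did not overlap (84.2 %, against 20.8 % of all features). None passed both limits (1.15 % of all features did so in this direction), 14 were higher at an unadjusted p under 0.05 (against 19 %), and 3 passed the adjusted p limit (against 7.46 %), among them ATCG00270 with 0.62 (limma adjusted p = 0.0031) and ATCG00630 with 0.57 (adjusted p = 0.0012). Without the floor 1 of the 19 passed the adjusted p limit, ATCG00270 (adjusted p = 0.0076), while ATCG00630 missed it (adjusted p = 0.0103). Both genes lay above the floor on all arrays, and their log2 fold changes were the same in that fit, with larger SE. After quantile normalization of the arrays the median was 0.14.

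**Figure D4:**
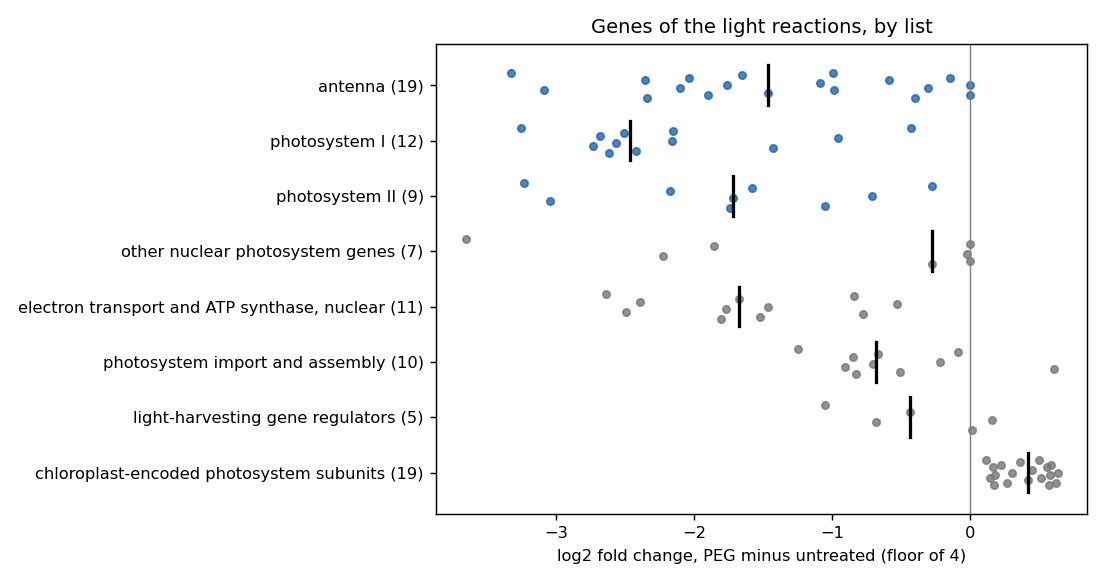
Log2 fold change (PEG minus untreated) of each gene in the 3 groups of the 40 genes and in 5 further lists; each point is a gene and the short line the median of its list. The nuclear photosystem, antenna and electron transport genes lie mostly below 0, the regulators lie between -1.05 and 0.16, and the 19 chloroplast genes lie between 0.11 and 0.64.

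Some values may hold signal from another transcript. Of the 40 genes, 16 overlap another annotated gene in the genome, among them the called genes LHCB1.5, LHCB3, LHCB6, LHCA5, PSAE1, PSAH2 and PSAN. The others are LHCB1.3, LHCB4.2, LHCA4, PSAD2, PSAE2, PSAG, PSAH1, PSBP1 and PSBR, which include the least changed genes of both photosystems. How far the probes distinguish strands is not given in the sources used here. For genes with further features, the values above come from the feature with the highest mean. The other feature of PSAN had a log2 fold change of -2.52, that of LHCB4.2 one of -1.09, and that of LHCB4.3 lay at the floor on all arrays.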

How the data were processed

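The authors deposited log2 expression values of Affymetrix arrays for 3 untreated and 3 PEG samples, made from 50 ng of RNA per array that was amplified and labelled with biotin. The submitters' processing notes name RMA. Its version is not given in the sources used here, and the paper's text states the normalization only for the ABA arrays, which were not analysed here. Array medians of the deposited log2 values lay between 4.81 and 4.97, and 38.2 to 41.6 % of the features on an array lay under 4 and were set to 4, which leaves no spread in groups at this floor. Since these are arrays, no read depth applies, and the number of arrays limits the precision.

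All 35986 features were fitted with limma 3.58.1 (lmFit and eBayes) in R 4.3.3 on the 6 arrays, with the group as the only term, and p was adjusted over all features by the Benjamini-Hochberg method. The limits follow the study's methods for arrays, where no adjustment of P is named. A gene with several features is represented by the one with the highest mean over the 6 arrays. Pairs of genes were compared with exact permutation tests in Python 3.11.15 with scipy 1.17.1. The fit was tested on simulated data with known changes, placed only in features with a high untreated level. That test does not cover genes near the floor. The labels call the samples biological replicates, and the paper describes seeds harvested in bulk from several plants, so p-values measure the spread between such pools.

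The 40 genes, the further lists and the tests were chosen with earlier results of these data known. All 40 genes may be named. Values of every array with the test are given for those of the 40 genes past both limits and for the least changed gene of each photosystem. For the least changed antenna genes, LHCB1.1 and LHCB1.4, only the highest value is given, as both lay at the floor on all arrays. Other genes with array values were chosen after their values were seen. Of the further lists, apart from the markers, called genes, at most 2 others with large changes and all 5 regulators are named. ATCG00270 and ATCG00630 of the chloroplast list are named as well. PSB27 and ALB3 were named after their values were seen. Of 108 listed genes, 89 matched a RefSeq gene table of assembly TAIR10.1, used only for names, neighbours and overlaps; the 19 that did not are encoded in the chloroplast and are given by identifier.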

Additional observations from a re-analysis of the deposited data

How the results depend on the processing

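In total 17 alternative settings were tried, besides leaving out arrays together with the filter or without the floor, which were chosen after seeing the data. No result past a limit changed direction. The shift of LHCB4.1 minus LHCB4.3 went from -0.25 to 1.05 without the floor, and 1 of the 19 chloroplast genes turned to -0.01 after quantile normalization. GNC went from 0.02 to -0.24 without untreated replicate 2. With 1 array left out, GLK1 reached -0.02 (0.16 with all arrays), AT2S1 0.05 (-0.08) and AT2S3 0.21 (-0.04). Without the floor 1684 features passed both limits (990 with it), and the median log2 fold change was -2.14 for the 40 genes, -2.18 for photosystem II genes and -1.16 for the other nuclear photosystem genes. With a floor of 5, 10 of the 40 genes and 658 features passed, and the medians were -1.27 for the 40 genes, -0.99 for antenna, -2.01 for photosystem I and -1.05 for photosystem II genes. The filter on low values drops little-changed genes near the floor and keeps genes that are high in untreated seeds alone, so its larger medians follow from the filter and are no support: -2.07 for the 34 of the 40 genes left, -1.83 for 14 antenna genes and -2.04 for 4 other nuclear photosystem genes. Its counts of calls are not read for the same reason. A fold limit of 1 gave 3675 features and 22 of the 40 genes, and quantile normalization gave a median of 0.14 for the chloroplast genes. Quantile normalization left 15 of the 40 genes called (without LHCB3) and centring on array medians 13 (without LHCB3, PSAD1 and PSAK). Leaving out 1 array at a time gave 5 to 11 of the 40 genes past both limits, 8 to 15 at the adjusted p limit and 589 to 736 features, with fewer samples in each fit. The medians then ran from -1.87 to -1.64 for the 40 genes, from -1.69 to -1.21 for antenna, from -2.54 to -2.27 for photosystem I, from -1.84 to -1.56 for photosystem II and from 0.33 to 0.46 for the chloroplast genes. Without the floor and with 1 array left out, 19 to 23 of the 40 genes passed both limits and 28 to 33 the adjusted p limit. With the replicate number as a block, 1 of the 40 genes and 25 features passed both limits, and 1 gene passed the adjusted p limit. Samples of the same number did not deviate together, with correlations of -0.09, -0.02 and 0.04, so the numbers were not taken to pair the samples. Where PEG arrays lie under the floor, only a smaller change than that in the deposited values is measured; the cause of the other differences between settings was not tested.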
